A study of Gallus gallus with 12 samples.

Results

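The first 20 Mb of chicken chromosome 4 were examined in maps of methylated DNA from liver. A peak was counted there when it lay on chromosome 4 and ended at or below position 20000000 of the galGal4 build. The 6 peak lists of the study held 8935 such peaks among 356324, and 13242 more lay on the rest of chromosome 4. No peak spanned the border (0 peaks). Every list contributed, with 1649, 1554 and 1399 peaks in resistant replicates 1, 2 and 3 and 1426, 1595 and 1312 in susceptible replicates 1, 2 and 3. These were between 2.36% and 2.56% of each list.

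The study compared livers of chickens recorded as resistant (3 libraries) or susceptible (3 libraries) to ALV-J, subgroup J of the avian leukosis virus. For both groups the labels give liver as the tissue and resistance as the recorded trait. They state no treatment, breed, age, sex or record of infection. ALV-J is a retrovirus that causes tumours of blood-forming and other tissues in chickens. Methylated DNA immunoprecipitation (MeDIP) enriches fragments with an antibody against methylated cytosine, and each library was called against the input DNA that carried its own sample number. The labels do not say whether each library came from a separate bird, so the p-values given here measure the spread between these samples. These p-values do not measure how unusual a stretch is among the stretches of the genome.

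Bird genomes hold a few large macrochromosomes and many small microchromosomes, and the small ones are rich in genes, in G and C bases and in CpG dinucleotides, the main sites of DNA methylation in vertebrates. Chicken chromosome 4 is a macrochromosome whose short arm is thought to have been a separate microchromosome in the ancestor of birds and to have joined the long arm later. That arm shares its gene content with a part of the human X chromosome. MeDIP recovers DNA with many methylated CpGs close together better than DNA with few. A peak thus marks a stretch enriched in methylated CpGs, and the absence of a peak does not show that a stretch is unmethylated. Sequences and gene annotation were not used here, because no genome of the build of the lists was at hand, and regions are named by their positions on chromosome 4 of galGal4, counted from 1.

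The libraries differed in list length, from 55599 to 64559 peaks, and sequencing depth is unknown. Resistant replicate 3 and susceptible replicate 3 stood apart from the other 4 on the sex chromosomes, with 65.3 and 68.1 kb of peaks per Mb on Z against 29.9 to 31.8 kb, and 50.2 and 53.3 kb per Mb on W against 179 to 189 kb. Their peaks were also wider, with a median over the whole list of 613 and 637 bp against 535 to 562 bp. The length of chromosome 4 was taken as the last peak end in any list, 90.2123 Mb, which is a lower bound and leaves 70.2123 Mb outside the first 20 Mb.

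Per Mb, peaks covered more of the first 20 Mb of chromosome 4 than of the rest of the chromosome in every library. They made up 22.2% of its length, but held 39.5% to 41.4% of its peaks and 44.5% to 46.5% of its peak-covered length. Peaks there were more closely spaced, somewhat wider, somewhat higher in score and more often found in all 6 lists. Both a higher number of peaks and a greater width entered the difference in coverage: the number per Mb was 2.29 to 2.48 times that of the rest, and the mean width 1.21 to 1.25 times.

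Covered length per Mb in the first 20 Mb was 57.7, 54.1 and 54.7 kb in resistant replicates 1 to 3 and 51.4, 57.4 and 54.3 kb in susceptible replicates 1 to 3. On the rest of chromosome 4 it was 19.97, 18.6 and 17.9 kb in the resistant libraries and 17.7, 20.4 and 18.96 kb in the susceptible ones. The lowest library in the first 20 Mb was therefore above the highest on the rest. The mean difference within a library was 36.0 ± 1.46 kb per Mb (SD, n = 6), from means of 54.9 ± 2.33 and 18.9 ± 1.07 kb, a ratio of 2.90. It was positive in 6 of 6 libraries, and the exact two-sided sign-flip permutation test gave p = 0.03125 (adjusted over 6 measures by the Benjamini-Hochberg method, p = 0.03125), the smallest value that 6 pairs allow. Much of this difference lay close to the chromosome end: without the first and the last 5 Mb of the chromosome it was 13.6 kb per Mb (exact sign-flip permutation test, p = 0.03125). Without the first 6 Mb it was 7.85 kb per Mb. This second limit was chosen after the coverage along the chromosome had been seen, so values without the first 6 Mb are given with no test. In these values the rest kept its dense last 5 Mb. Without those 5 Mb the rest had 16.1 kb per Mb, against 26.8 kb from 6 to 20 Mb.

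**Figure D1:**
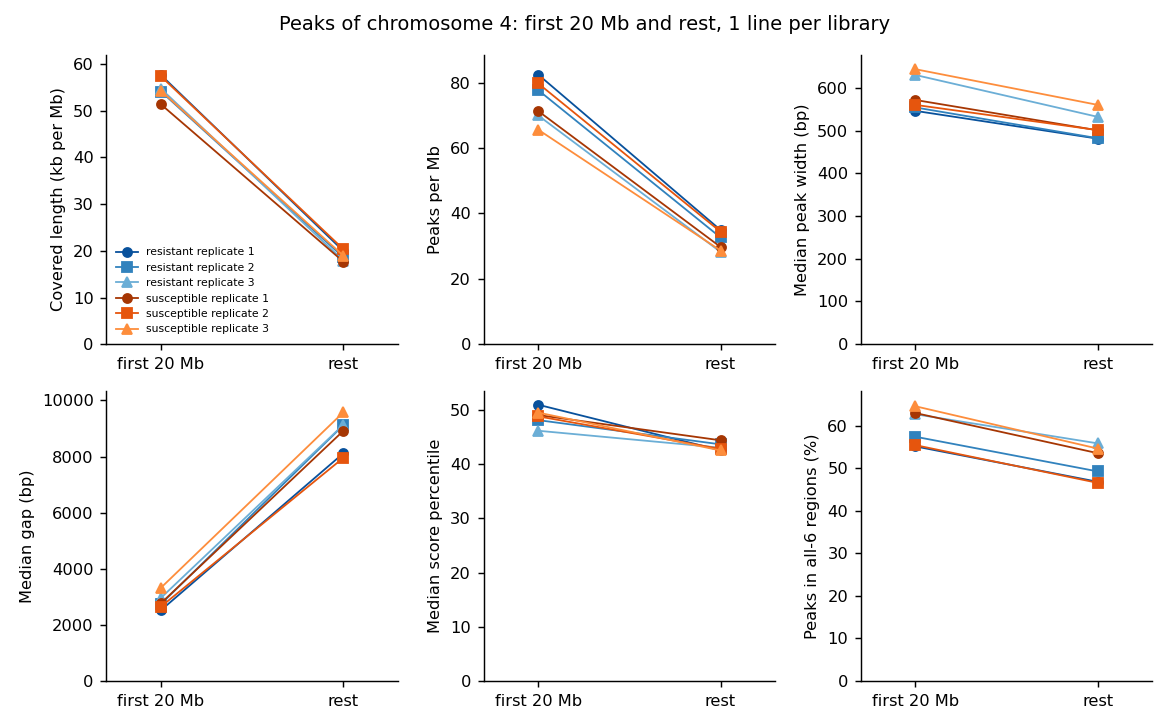
The 6 measures of the peaks of chromosome 4, each with the first 20 Mb on the left and the rest of the chromosome on the right, and 1 line per library (blue, resistant; orange, susceptible). Covered length, peaks per Mb, width, score percentile and the share of peaks in regions found in all 6 lists were higher in the first 20 Mb in each library, and the median gap was lower.

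Peak density followed the same order. Density was 82.5, 77.7 and 70.0 peaks per Mb in the resistant libraries, in the order of their replicate numbers, and 71.3, 79.8 and 65.6 in the susceptible ones, against 28.2 to 34.9 on the rest of the chromosome. The difference was 43.0 ± 3.76 peaks per Mb (SD, n = 6; exact sign-flip permutation test, p = 0.03125, adjusted p = 0.03125; 6 of 6 libraries). With only peaks above the pooled median score of 193.59 it was 23.0 (exact sign-flip permutation test, p = 0.03125). Without the first and the last 5 Mb of the chromosome it was 19.2 (exact sign-flip permutation test, p = 0.03125), and without the first 6 Mb alone 11.5. In the latter value the rest kept its last 5 Mb. Without those 5 Mb its density was 27.6 peaks per Mb, against 43.0 from 6 to 20 Mb.

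The distance from the end of a peak to the start of the next one, the gap, had a median of 2522, 2742 and 2963 bp in resistant replicates 1 to 3 and 2773, 2650 and 3324 bp in susceptible replicates 1 to 3. On the rest of chromosome 4 the medians ran from 7955 to 9578 bp, so the libraries did not overlap between the 2 stretches. The mean difference was -5974 ± 424 bp (SD; exact sign-flip permutation test, n = 6, p = 0.03125, adjusted p = 0.03125; lower in 6 of 6 libraries). It widened to -13156 bp with the score minimum. Without the first and the last 5 Mb of the chromosome it was -7388 bp (exact sign-flip permutation test, p = 0.03125), and without the first 6 Mb alone -2370 bp. In the latter value the rest kept its last 5 Mb. Without those 5 Mb its median gap was 12419 bp, against 6433 bp from 6 to 20 Mb. Gaps under 1 kb made up 28.5 ± 1.84% of gaps in the first 20 Mb and 15.6 ± 0.745% on the rest (SD, n = 6). Gaps of 100 kb or more were the rarer in the first 20 Mb, with 1.48 ± 0.169 per Mb (24 to 34 per list) against 2.46 ± 0.136 per Mb on the rest (161 to 189 per list).

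Peaks of the first 20 Mb had a median width of 546, 554 and 630 bp in resistant replicates 1 to 3 and 571.5, 560 and 643.5 bp in susceptible replicates 1 to 3. The rest of the chromosome had 481, 482 and 532 bp and 500.5, 501 and 560 bp in the same order, so that the ranges over libraries overlapped while each library on its own was wider in the first 20 Mb. Resistant replicate 3 and susceptible replicate 3, the libraries that stood apart on Z and W, were the widest in both stretches. The difference was 74.8 ± 14.0 bp (SD, n = 6; exact sign-flip permutation test, p = 0.03125, adjusted p = 0.03125). It was 132 bp with the score minimum. Without the first and the last 5 Mb of the chromosome it was 39.1 bp (exact sign-flip permutation test, p = 0.03125), and without the first 6 Mb alone 14.7 bp. In the latter value the rest kept its last 5 Mb. Without those 5 Mb its median width was 497 bp, against 524 bp from 6 to 20 Mb. Peaks wider than 2 kb were rare in both stretches, with 2.87 ± 0.732% in the first 20 Mb and 1.16 ± 0.219% on the rest. In the first 20 Mb of chromosomes 1, 2, 3 and 5 together they were more frequent, with 4.39%.

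The score of a peak, a value of the authors' peak caller that rises with depth, was read as a percentile within its own list. The median percentile of the first 20 Mb was 51.0, 48.1 and 46.2 in resistant replicates 1 to 3 and 49.1, 48.8 and 49.5 in susceptible replicates 1 to 3. Peaks there were thus near the middle of their lists, while those of the rest lay at 42.5 to 44.4. The difference was 5.61 ± 1.91 percentile points (SD, n = 6; exact sign-flip permutation test, p = 0.03125, adjusted p = 0.03125; 6 of 6 libraries). It was 3.07 points without the first and the last 5 Mb of the chromosome (exact sign-flip permutation test, p = 0.03125), and without the first 6 Mb alone -0.251 points. In the latter value the rest kept its last 5 Mb. Without those 5 Mb its median percentile was 41.3, against 42.9 from 6 to 20 Mb. Other parts of the genome came close to the mean of 48.8 in the first 20 Mb of chromosome 4. The first 20 Mb of chromosomes 1, 2, 3 and 5 together had 48.3. Chromosomes 6 to 10 had 48.1, and chromosomes 11 to 14 and 17 to 20 had 53.5.

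The coverage of the first 20 Mb was far from even. In windows of 1 Mb it rose from 92.6 ± 6.35 kb in the first window to 288 ± 7.56 kb in the second, the highest of chromosome 4, and then declined to 129.8 ± 4.89, 94.8 ± 6.25 and 46.6 ± 3.23 kb (SD, n = 6). The sixth window was higher again, with 71.4 ± 3.29 kb. The seventh and eighth windows held only 3.18 ± 0.840 and 3.32 ± 0.538 kb. From there to 20 Mb the windows lay between 15.5 ± 1.66 kb in window 15 and 59.2 kb in window 12. All 6 libraries followed this course closely.

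**Figure D2:**
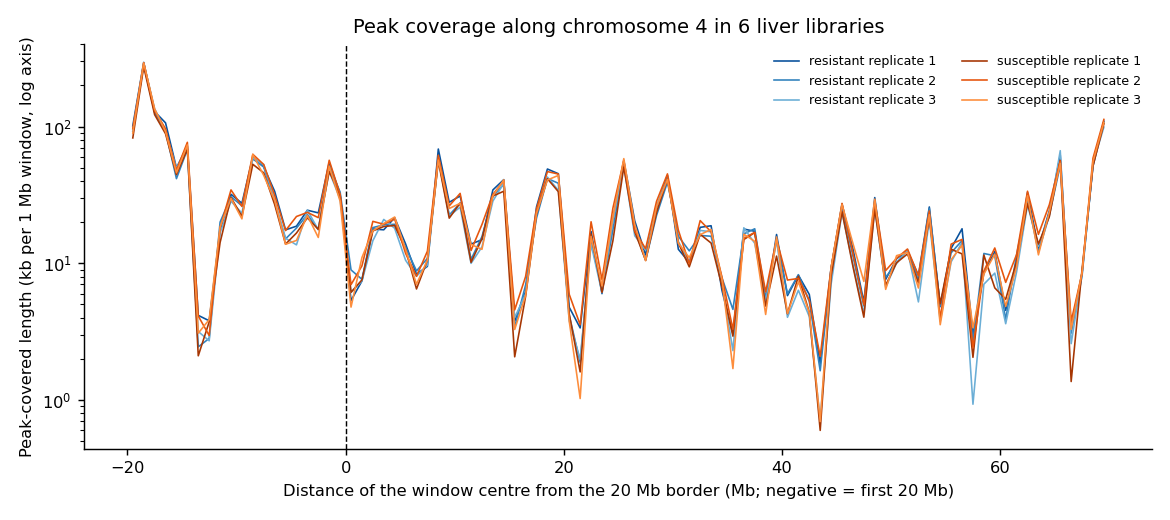
Peak-covered length in each 1 Mb window of chromosome 4 on a log axis, plotted by the distance of the window's centre from the border at 20 Mb (negative values, first 20 Mb), with 1 line per library. The lines peak at 288 kb in the second window, fall to about 3 kb in the seventh and eighth, and drop again, by less, at the border.

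The second window, from 1000001 to 2000000, held 295, 284 and 291 kb of peaks in resistant replicates 1 to 3 and 275, 293 and 292 kb in susceptible replicates 1 to 3. The libraries of the groups overlapped. Among the 988 full windows of all placed chromosomes it ranked 11, and among the 602 of chromosomes 1 to 5 it ranked 2, after the first Mb of chromosome 2 with 309 kb. The first Mb of chromosome 5 had 248 kb and that of chromosome 1 had 240.4 kb. On the rest of chromosome 4 the highest window reached 107 kb.

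At the other extreme, windows 7 and 8, from 6000001 to 8000000, ranked 971 and 968 of 988. Window 7 held 4.16, 2.45 and 3.17 kb in resistant replicates 1 to 3 and 2.11, 4.12 and 3.09 kb in susceptible replicates 1 to 3. Window 8 held 3.80, 2.82 and 2.71 kb and 3.73, 2.97 and 3.87 kb in the same order. These 2 Mb carried 7 peaks per Mb on average. Windows near the top and near the bottom of the ranking thus lay a few Mb apart.

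At the point where coverage dropped, the first 6 Mb were told apart from the remainder. They held 121 ± 4.35 kb of peaks per Mb, 148 peaks per Mb, a median width of 629 bp and a median score percentile of 53.3. This stretch contained 58.4% to 60.4% of the peaks and 64.6% to 67.0% of the covered length of the first 20 Mb. From 6 to 20 Mb there were 26.8 ± 1.70 kb per Mb, 43.0 ± 4.42 peaks per Mb, a median width of 524 ± 39.1 bp and a median percentile of 42.9. Of these 14 windows, 12 were above the median window of the rest of the chromosome, 12.4 kb, and their own median was 23.8 kb. Over all 20 windows the median was 31.0 kb and 18 lay above the median of the rest.

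In 4 blocks of 5 Mb, counted inward from the chromosome end, coverage was 130.4 ± 4.81, 25.3 ± 1.27, 35.6 ± 2.20 and 28.4 ± 2.13 kb per Mb (SD, n = 6). Peak density was 157, 40.6, 57.8 and 41.9 per Mb, and median width 633.5, 545, 532.5 and 535 bp. Median gaps rose from block to block, with 1825, 3186, 5078 and 8662 bp, the last close to that of the rest of the chromosome. The value of block 2 mixed the dense sixth window with the stretch from 6 to 8 Mb, where the median gap was 105025 bp. From 6 to 20 Mb as a whole the median gap was 6433 bp. Blocks 2 and 4 had similar densities, with means less than 1 SD apart, while the median gap of block 2 was the shorter in every library.

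**Figure D3:**
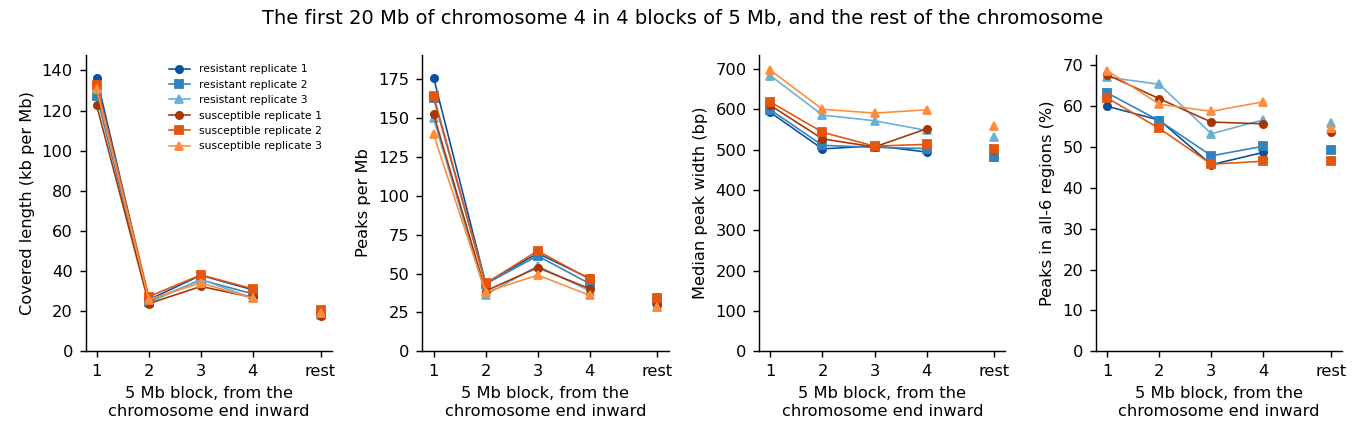
Covered length per Mb, peaks per Mb, median peak width and the share of peaks in regions found in all 6 lists, in 4 blocks of 5 Mb from the chromosome end inward and on the rest of chromosome 4, with 1 line per library. The first block stands apart with 122.5 to 136 kb per Mb, and blocks 2 to 4 lie between it and the rest at 23.8 to 38.1 kb per Mb.

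Chromosome 4 was also densest at its start among the ends of chromosomes 1 to 5. The ends of the Z chromosome, which is also large, were not measured here. The first 5 Mb of chromosome 4 had 130.4 kb per Mb. The first and last 5 Mb of chromosome 1 had 72.5 and 96.6 kb, those of chromosome 2 had 94.9 and 31.0 kb, those of chromosome 3 had 53.5 and 40.7 kb, those of chromosome 5 had 72.6 and 78.1 kb, and the last 5 Mb of chromosome 4 had 55.6 kb. From 5 to 20 Mb the start of chromosome 4 was within the range of the others. It had 29.7 kb per Mb, against 12.8 kb at the other end of chromosome 4 and 14.3 to 36.6 kb from 5 to 20 Mb inside the ends of chromosomes 1, 2, 3 and 5.

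Coverage did fall near 20 Mb, but several borders of chromosome 4 showed larger steps. The last 5 windows before the border averaged 28.4 ± 2.13 kb and the 5 windows after it 14.3 ± 0.775 kb (SD, n = 6). The drop was 16.7, 14.0 and 13.02 kb in resistant replicates 1 to 3 and 13.1, 15.7 and 11.6 kb in susceptible replicates 1 to 3, so it was present in each list. Window 20 alone held 31.1 ± 1.78 kb and window 21 held 6.39 ± 1.46 kb. Among the 81 window borders with 5 windows on each side, the border at 20 Mb ranked 11 to 17 by the size of this step, in whichever direction it went. The largest step was at 6 Mb in every list, with 105 to 113 kb.

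A fit of 2 levels along chromosome 4 placed the border at 4 Mb in each of the 6 lists, where it took up 53.0% to 55.3% of the variance between windows. A border at 20 Mb took up 16.4% to 17.9%. Without the outer 6 windows at both ends, the last of them shorter than 1 Mb, the best border was at 50 Mb. It took up 14.5% to 16.4%, against 6.74% to 9.88% at 20 Mb. Windows are neighbours on 1 chromosome and not replicates, so these fits are a description.

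The peaks next to the border were also located in each list. The last peak of the first 20 Mb ended between 19934729 and 19934756 in 4 lists, with scores of 596 to 925, and at 19891107 and 19891119 in resistant replicate 3 and susceptible replicate 3, with scores of 102 and 126. The next peak began between 20024312 and 20055676. The gap across the border was 89650 to 164467 bp. Gaps of 100 kb or more numbered 24 to 34 per list in the first 20 Mb and 161 to 189 on the rest. A gap of this size was thus not particular to the border.

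The first 20 Mb were then set against 6 other compartments of the genome, to see whether they resembled a chromosome end, an intermediate chromosome or a microchromosome. In covered length, peaks per Mb and median width they lay above the other compartments of the macrochromosomes, slightly above chromosomes 6 to 10 and below the larger microchromosomes 11 to 14 and 17 to 20. These orders held in 6 of 6 libraries for each of the 18 differences (exact sign-flip permutation tests, n = 6, p = 0.03125 each, adjusted over 18 tests p = 0.03125). The values of a given compartment kept much the same order in all libraries, so small differences reached this p as well as large ones. The tests show that the orders were repeated in these libraries. They cannot show whether the first 20 Mb are unusual among stretches of the genome.

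Coverage was 21.5 ± 1.41 kb per Mb from 20 to 40 Mb of chromosome 4 and 23.5 ± 1.03 kb in its last 20 Mb. It was 37.4 ± 1.72 kb in the first 20 Mb and 30.9 ± 1.45 kb in the last 20 Mb of chromosomes 1, 2, 3 and 5 together (SD, n = 6). Against the first of these, ends of the same length, the first 20 Mb of chromosome 4 were higher by 17.6 ± 1.07 kb, or by 10.7 kb with the score minimum. Chromosomes 6 to 10 had 49.6 ± 2.20 kb, a difference of only 5.36 ± 0.739 kb, or 3.54 kb with the score minimum. Among them chromosomes 6 and 7, with 38.5 and 38.9 kb, were below the first 20 Mb of chromosome 4, while chromosomes 8, 9 and 10 had 56.0, 57.6 and 69.5 kb.

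The larger microchromosomes averaged 86.9 ± 3.07 kb per Mb, so the first 20 Mb of chromosome 4 were lower by a mean difference of -32.0 ± 1.40 kb. The lowest of these microchromosomes, chromosome 12, is about as long and had 65.6 kb (61.2 to 68.2 kb over the lists), above the 51.4 to 57.7 kb of the first 20 Mb of chromosome 4. The median window held 31.0 kb in the first 20 Mb of chromosome 4, 17.2 kb on chromosomes 1, 2, 3 and 5, 27.4 kb on chromosomes 6 to 10 and 59.5 kb on the larger microchromosomes. Taken as a whole, the first 20 Mb thus had lower peak coverage than these microchromosomes. Their parts differed: the first 6 Mb, a limit set after coverage was seen, had 121 kb per Mb, within the range of the single microchromosomes, 65.6 to 131 kb. This was not particular to chromosome 4. Both 5 Mb ends of chromosomes 1 and 5 and the first 5 Mb of chromosome 2, with 72.5 to 96.6 kb, also lay within it. Both ends of chromosome 3 and the last 5 Mb of chromosomes 2 and 4, with 31.0 to 55.6 kb, lay below it. From 6 to 20 Mb of chromosome 4 there were 26.8 kb per Mb, below all of these microchromosomes. A peak list cannot show where a chromosome arm came from.

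**Figure D4:**
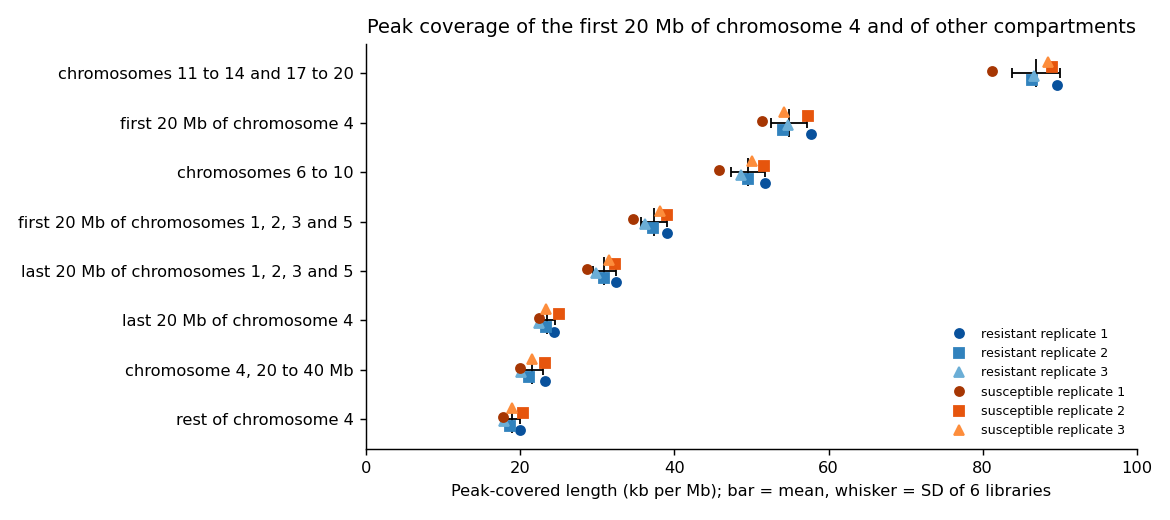
Covered length per Mb in the first 20 Mb of chromosome 4 and in 7 other compartments, with 1 point per library, a bar at the mean and whiskers of 1 SD (n = 6). The first 20 Mb, at 51.4 to 57.7 kb, lie just above chromosomes 6 to 10 and well below the larger microchromosomes.

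Peaks of the first 20 Mb were shared over the lists more often than those of the rest of the chromosome. Peaks of different lists that overlapped or touched were joined into merged regions, of which 2233 lay in the first 20 Mb and 3812 on the rest. The share of a library's peaks that lay in a region with a peak in all 6 lists was 55.2%, 57.5% and 62.8% in resistant replicates 1 to 3 and 63.0%, 55.5% and 64.6% in susceptible replicates 1 to 3. On the rest it was 46.9%, 49.3% and 55.9% and 53.6%, 46.6% and 54.7%. Each library was thus higher in the first 20 Mb, and the lists with fewer peaks were the higher ones in both stretches. Regions with a peak in all 6 lists enter the values of all 6 libraries. These values are therefore not independent observations, although the test treats them as such. The difference was 8.61 ± 1.09 percentage points (SD, n = 6; exact sign-flip permutation test, p = 0.03125, adjusted p = 0.03125). It was 4.84 points without the first and the last 5 Mb of the chromosome (exact sign-flip permutation test, p = 0.03125), and without the first 6 Mb alone 0.576 points. In the latter value the rest kept its last 5 Mb. Without those 5 Mb its share was 49.3%, against 51.7% from 6 to 20 Mb. Other parts of the genome came close to the mean share of 59.8% in the first 20 Mb of chromosome 4. The first 20 Mb of chromosomes 1, 2, 3 and 5 together had 57.1%. Chromosomes 6 to 10 had 58.15%, and chromosomes 11 to 14 and 17 to 20 had 63.8%.

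Of the 2233 regions, 785 had a peak in all 6 lists (35.2%, exact Clopper-Pearson 95% interval 33.2% to 37.2%, which covers counting error only) and 553 in a single list (24.8%). The share in all 6 was 40.8% (38.1% to 43.6%) in the first 6 Mb and 28.2% (25.4% to 31.1%) from 6 to 20 Mb. The latter overlapped the 27.2% (25.8% to 28.7%) of the rest of the chromosome. Over all 90181 merged regions of the genome it was 33.5%. Regions found in all 6 lists were wider, with a median of 964 bp against 397 bp for those of a single list, and held 55.7% of the merged length of the first 20 Mb against 43.5% on the rest. Of the single-list regions, 161, 105 and 65 came from resistant replicates 1 to 3 and 43, 126 and 53 from susceptible replicates 1 to 3, with the 3 longest lists contributing most.

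Sharing rose steeply with the score of a peak, and within each quartile of score the mean share was slightly higher in the first 20 Mb. Among peaks in the lowest quartile of their own list, 19.5 ± 3.71% lay in regions found in all 6 lists, then 44.1 ± 9.19%, 80.8 ± 4.66% and 98.2 ± 1.23% in the following quartiles (SD, n = 6). On the rest of chromosome 4 the shares were 16.3%, 38.4%, 75.1% and 96.6%. In 6, 6, 6 and 5 of the 6 libraries the share was higher in the first 20 Mb. These also had more of the best-shared peaks, with 23.2% of their peaks in the top quartile against 17.7% on the rest. Peak width and density, which also differed between the stretches, were not held equal, and the quartiles were not split at 6 Mb. All 6 libraries share these regions, so the counts of libraries are not counts of independent observations.

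**Figure D5:**
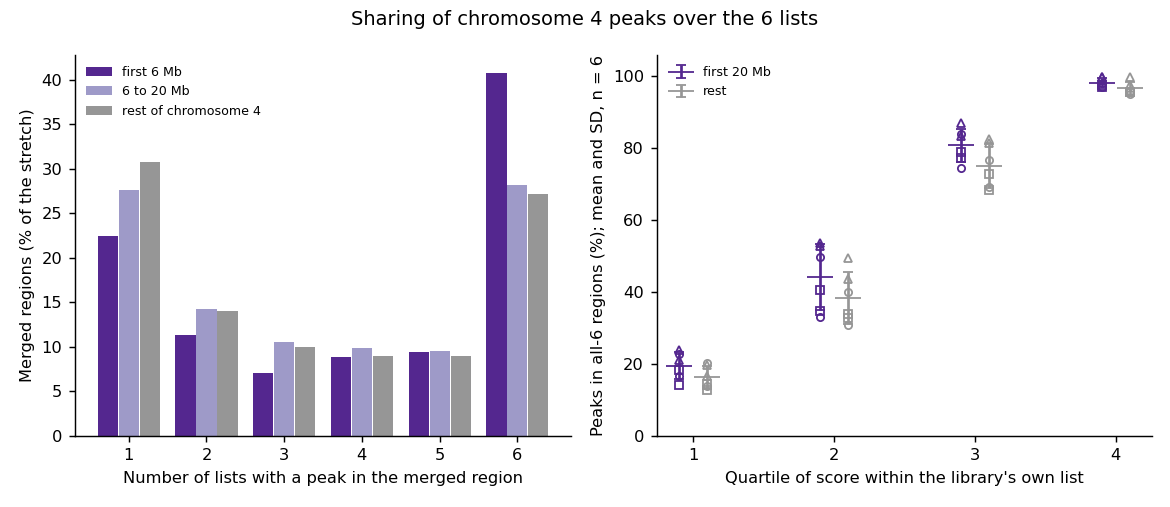
Left, the percentage of merged regions found in 1 to 6 lists, for the first 6 Mb, for 6 to 20 Mb and for the rest of chromosome 4. Right, the percentage of peaks that lie in regions found in all 6 lists, by quartile of score within the own list, with 1 point per library, the mean and the SD (n = 6); the left panel shows the excess of regions in all 6 lists in the first 6 Mb (40.8%) and the right panel the rise from 19.5% to 98.2%.

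Base by base, libraries also overlapped more in the first 20 Mb. For a pair of libraries, the Jaccard index divides the bases under a peak in both by those under a peak in at least 1 of them. It was 0.633 ± 0.0106 over the 15 pairs (0.611 to 0.652) and 0.559 ± 0.0107 (0.543 to 0.578) on the rest. The first 20 Mb had the higher index in 15 of 15 pairs, which share libraries and are no independent observations. Pairs within the resistant group had a mean of 0.629, pairs within the susceptible group 0.638 and pairs across groups 0.633.

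Individual regions of the first 20 Mb were listed by score and by width. They are extremes and do not describe the bulk of the dense part, where the 1235 merged regions of the first 6 Mb had a median width of 657 bp. The caller's scores pile up at 3100, and 16 regions of the first 20 Mb had a peak of at least that score in each of the 6 lists, 13 of them in the first 6 Mb and 7 in the second Mb. This tie left 16 equal regions, and the first 5 by position were taken, at chr4:343-1102, chr4:2027-5707, chr4:22873-24845, chr4:1576594-1582113 and chr4:1616605-1621360. The region at chr4:1616605-1621360, 4756 bp long, was covered over 4598 to 4755 bp in each list. Outside the first 6 Mb the 3 others were at chr4:18718083-18722979, chr4:18839116-18845722 and chr4:19201495-19203121. Such regions occurred 0.8 times per Mb in the first 20 Mb, 0.157 times on the rest of chromosome 4 and 0.804 times over the whole genome. Their density in the first 20 Mb was thus close to that of the genome, and the rest of the chromosome was below both.

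The widest merged region of the first 20 Mb was chr4:18839116-18845722, 6607 bp long and among the regions at the top score. It was followed by chr4:1036993-1043423 with 6431 bp, chr4:1819086-1825380 with 6295 bp, chr4:1582680-1588911 with 6232 bp and chr4:18881273-18887356 with 6084 bp. All 5 were present in all 6 lists, 3 in the second Mb and 2 between 18 and 19 Mb. Regions wider than 2 kb numbered 98 in the first 20 Mb, or 4.9 per Mb, of which 77 were in the first 6 Mb, against 68 on the rest, or 0.968 per Mb.

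In bins of 100 kb, the densest was the bin from 1000001 to 1100000, where peaks covered 55.7 ± 1.92 kb (SD, n = 6). It was followed by the bins from 1700001 to 1800000 with 44.0 kb and from 1600001 to 1700000 with 43.7 kb. Bins with a mean above 20 kb numbered 14 in the first 6 Mb, 0 from 6 to 20 Mb and 4 on the rest of chromosome 4. Of the 200 bins of the first 20 Mb, 11 had no peak in any list (5.5%), against 64 of 702 on the rest (9.12%).

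The longest stretch of the first 20 Mb without a peak in any list was chr4:9905309-10268960, of 363652 bp. It was longer than the longest on the rest of the chromosome, chr4:67030866-67387380, of 356515 bp. The next were chr4:5893732-6123417, of 229686 bp, at the point where coverage dropped, and chr4:7843892-8073163, of 229272 bp. Stretches of 100 kb or more took up 15.0% of the first 20 Mb (19 stretches) and 24.95% of the rest (110 stretches). Within single lists the longest gap ran from 447716 bp in susceptible replicate 1 to 914315 bp in resistant replicate 3, and the gap of 914073 bp in susceptible replicate 3 covered nearly the same bases as the latter.

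The resistant and susceptible groups were compared within the first 20 Mb, the question the study was designed for. None of the 5 values passed the exact two-sided permutation test, in which 3 libraries against 3 cannot give a p below 0.1. Resistant libraries averaged 55.5 ± 1.89 kb of covered length per Mb and susceptible libraries 54.3 ± 3.00 kb (SD, n = 3 each), a difference of 1.16 kb (exact permutation test, p = 0.5, adjusted over 5 values p = 0.5). This difference turned negative, to -0.0261 kb with the score minimum, to -0.539 kb with lists of equal length and to -0.319 kb without susceptible replicate 1. Peaks per Mb were 76.7 ± 6.31 and 72.2 ± 7.12, and median width was 577 ± 46.4 and 592 ± 45.3 bp (exact permutation test, p = 0.5 for each). The share of peaks in regions found in all 6 lists was 58.5 ± 3.89% and 61.1 ± 4.89% (exact permutation test, p = 0.5). Each library's share depends on all 6 lists, so the shares are not independent.

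The ratio of coverage between the first 20 Mb and the rest of chromosome 4 takes both of its values from the same list. Its values were 2.89, 2.90 and 3.05 in resistant replicates 1 to 3 and 2.90, 2.82 and 2.86 in susceptible replicates 1 to 3. The groups overlapped narrowly, with means of 2.95 ± 0.0911 and 2.86 ± 0.0428 (SD, n = 3 each; exact permutation test, p = 0.2, adjusted p = 0.5). The highest ratio belonged to resistant replicate 3, and without that library the difference of 0.0879 became 0.0356. Leaving out any other library gave a difference of 0.0661 to 0.118. With the score minimum it was 0.000318, and with lists of equal length 0.121 (exact permutation test, p = 0.1, the smallest possible).

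The groups were also compared window by window. Of the 20 windows of 1 Mb, 0 had all 3 resistant libraries above all 3 susceptible ones and 0 the reverse. Over all 1019 windows of the genome the shares were 2.16% and 1.47%, and on the rest of chromosome 4 the counts were 2 and 1 of 71. At such low shares, 20 windows are too few for counts of 0 to tell this stretch from the genome. The resistant mean was the higher one in 14 of the 20 windows, and in 29 of the 71 on the rest of chromosome 4. These windows share the same libraries, so the counts were not tested, and the count over the genome is not given here.

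Regions were called resistant-only where each of the 3 resistant lists, and none of the susceptible lists, had a peak. There were 14 in the first 20 Mb, or 0.627% of its regions (Clopper-Pearson 95% interval 0.343% to 1.05%), near the 0.577% of all regions of the genome and the 0.682% (26 regions) of the rest of chromosome 4. Susceptible-only regions numbered 9, or 0.403% (0.184% to 0.764%), near the 0.320% of all regions and the 0.367% (14 regions) on the rest. Regions with a peak in exactly 3 lists numbered 192, and the 23 that followed the groups were 11.98% of them (7.75% to 17.4%), against 9.46% over the genome. The first 6 Mb held 6 resistant-only regions (0.486% of its regions) and 2 susceptible-only regions (0.162%). From 6 to 20 Mb there were 8 (0.802%) and 7 (0.701%). The Clopper-Pearson 95% intervals of these 2 stretches overlapped for each kind of region. Leaving out any 1 library changed the counts of the first 20 Mb to between 28 and 40 and between 16 and 32. A region then needs a peak, or the lack of one, in fewer lists. Which direction had more regions also depended on the processing: lists of equal length gave 8 resistant-only and 12 susceptible-only regions. Leaving out susceptible replicate 3 gave 28 and 32, but resistant-only regions then still needed 3 peaks and susceptible-only regions only 2. The shares over the genome under these alternative settings are not given here, so their counts are not set against the genome.

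The group-only regions were weak. The lowest of the 3 score percentiles of a region had a median of 8.85 over the resistant-only and 9.14 over the susceptible-only regions. The highest-ranked resistant-only region, chr4:15979541-15980058, scored 202.8, 179 and 189 in the 3 resistant lists. Susceptible peaks came no closer to it than 36726 bp. Next came chr4:11403885-11404326 with scores of 243, 145 and 142, but a susceptible peak lay 666 bp from it. The others were chr4:18138217-18138656 with scores of 168, 139 and 134, chr4:1868882-1869559 with 159, 151 and 112, and chr4:15723758-15724296 with 117, 104 and 119. None of these 5 was found again with the score minimum (0 of 5). This was fixed by the scores, as each region had at least 1 resistant score below that minimum.

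Among susceptible-only regions, chr4:11593314-11593814 ranked highest and scored 339, 322 and 197 in the 3 susceptible lists, with resistant peaks no closer than 2790 bp. It was the 1 region of the 5 with all 3 scores above the score minimum, and hence the 1 that was found again with it. The others were chr4:17227533-17227954 with scores of 140.4, 167 and 164, chr4:15514028-15514612 with 103, 126 and 129.7, chr4:12272817-12273486 with 215, 123 and 101, and chr4:66377-66859 with 91.8, 91.3 and 104. The nearest resistant peak to these 4 lay between 594 and 35777 bp away.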

How the data were processed

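MeDIP-seq peaks of 6 liver libraries were analysed; the 6 input libraries entered only through the authors' peak calling. Per the submitters' processing notes, cutadapt, Bowtie2 and the build galGal4 were used. The authors deposited 1 peak list per library, called with MACS against its own input, per the names of the lists and their peaks, so replicates were not pooled. The deposited score of a peak, a value of the caller read from its values as 10 times the negative log10 of p (lowest 80, a threshold of 1e-08), rises with depth and served to rank and filter peaks. The lists state no read numbers, so the depth of each library is unknown. Versions of these tools, and how duplicate reads were handled, are not given in the sources.

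Coverage, peak number, gaps, width and score percentiles were computed in Python 3.11.15 with NumPy 2.4.6, pandas 2.3.3 and SciPy 1.17.1. Both stretches were compared within libraries by exact sign-flip tests and groups by exact permutation tests. Replicate numbers follow the order of deposition and pair no samples. Named were the 5 strongest regions in all lists, the 5 widest, the 5 highest-ranked group-only regions in each direction by their lowest score percentile, the 3 longest empty stretches and the 3 highest and 3 lowest windows; other regions, bins and the split at 6 Mb were chosen after their values were seen. The members, measures and tests were chosen with earlier results of these data known. The computations were tested on simulated lists. Alternatives were a score minimum at 193.59, the 55599 best peaks of every list, joining peaks up to 500 bp apart, other borders and windows, trimmed chromosome ends, a cover of 50%, fixed windows of 1000 bp and leaving libraries out.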

Additional observations from a re-analysis of the deposited data

How the results depend on the processing

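Differences between the first 20 Mb and the rest of chromosome 4 kept their direction under the alternatives except the score percentile. That was -0.251 points without the first 6 Mb, a setting added after the data were seen. The share of peaks in all-6 regions then differed by 0.576 points. This setting left the dense last 5 Mb in the rest. Without those 5 Mb the rest had a percentile of 41.3 and a share of 49.3%, against 42.9 and 51.7% from 6 to 20 Mb. With any 1 library left out, the smallest possible p is 0.0625, and the differences ranged from 35.7 to 36.5 kb per Mb, 42.1 to 44.2 peaks per Mb, 70.1 to 77.9 bp of width, -6108 to -5893 bp of gap, 5.05 to 6.11 percentile points and 8.25 to 8.68 points of sharing. Without both libraries that stood apart on Z and W, where p cannot go below 0.125, they were 36.0 kb, 44.9 peaks, 66.8 bp, -5855 bp, 5.89 and 7.56 points. Against the 6 compartments, in the order of the text, leaving out a library gave 33.2 to 33.8, 31.1 to 31.9, 17.3 to 17.8, 23.8 to 24.3, 5.23 to 5.58 and -32.4 to -31.6 kb per Mb. The step at 20 Mb was 8.81 kb with the score minimum and 18.2 kb with 2 Mb windows. The group difference in covered length was -0.0261 kb with the score minimum, -0.539 kb with lists of equal length, and -0.319 to 2.68 kb with a library left out. Resistant-only regions numbered 5 with the score minimum, 8 with equal lists and 28 to 40 with a library left out. Susceptible-only regions numbered 4 with the score minimum, 12 with equal lists and 16 to 32 with a library left out. Of the named ones, 0 and 1 were found again with the score minimum, which followed from their scores. Shares of group-only regions over the genome under these settings are not given here. The share of regions in all 6 lists was 30.7% when peaks had to cover 50% of a region. No paired analysis was possible because replicate numbers follow deposition order. Unknown depth, a chromosome length taken from the peaks and the missing genome limit these values, and CpG content was not analysed.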
